A study of Mus musculus with 8 samples.

Results

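FruArg plus LPS was set against no treatment in BV-2 cells, a line of immortalised mouse microglia, with 2 libraries from FruArg+LPS cells and 2 from control cells. These 4 of the 8 libraries in the series were chosen by the treatment named in the columns of the deposited count table. LPS, a component of the bacterial outer membrane, was given at 100 ng/mL in every group but the control, and the methods state an exposure of 20 h. FruArg, fructosyl arginine, is a conjugate of a sugar and arginine found in aged garlic extract (AGE), and FruArg+LPS cells received it at 3 mM from 1 h before LPS. The LPS group (2 libraries) had LPS alone, the AGE+LPS group (2 libraries) had the extract at 0.5% v/v from 1 h before LPS, and control cells had none of these agents. All groups had been in serum-free medium for 4 h, and poly(A) RNA was sequenced. No group received FruArg without LPS, and all cells are of 1 line. The comparison asks what remained of the response to LPS when FruArg was present, and which genes differed from control only with both agents.

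Microglia sense LPS through the receptor Tlr4 with its partners Cd14 and Ly96. One arm of signalling from this receptor activates NF-kB, which drives genes for cytokines such as Il6, Il1b and Tnf, and another arm leads to type I interferon, which induces antiviral genes through transcription factors of the STAT family. Cells under oxidative or electrophilic stress also use the transcription factor Nrf2, which induces genes for glutathione synthesis, haem breakdown and detoxification.

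Control libraries held 2707500 and 8995052 counts, and FruArg+LPS libraries 4692715 and 5822113. The LPS libraries held 8720784 and 12069807 counts, and the AGE+LPS libraries 6795464 and 6669072. Levels are given as CPM, a gene's counts scaled to a library's total and its TMM normalisation factor, replicate 1 before replicate 2, and 3 counts correspond to 0.276 to 0.933 CPM depending on the library. Replicate 1 of every group was sequenced in lane 3 and replicate 2 in lane 6, so lane and replicate cannot be told apart. The column names of replicate 2 also share a run of digits that those of replicate 1 lack, and its meaning is not stated. The labels do not say whether the 2 libraries of a group came from separate cultures, so every p and SE measures only the spread between these libraries, which may be technical. FruArg+LPS replicate 1 stood apart. At a common depth of 2707500 counts it would show 14157 genes, against 15392 in replicate 2, 16341 and 16130 in control, 15708 and 15662 in LPS, and 15804 and 15576 in AGE+LPS. The standard deviation across genes of the log2 difference between replicates was 0.779 in FruArg+LPS, against 0.494 in control and 0.551 in LPS. Mitochondrial genes took 4.19% and 3.01% of counts in FruArg+LPS and 4.17% and 3.4% in control, so on this measure replicate 1 was like control replicate 1. The part of this library's state in the results was not tested, and the counts of genes called, kept and lost are given with and without it. Of 88 gene differences from LPS, 13 fell short of the test without it, among them those of Cenpe, Map2k3, Srxn1 and Selplg.

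The markers of microglia and macrophages were present. Of the 14 listed, 13 passed the filter on low counts, and they summed to 5747 and 7147 CPM in control, 4729.7 and 5258 in LPS, and 6939 and 6661 in FruArg+LPS. Of the 13, 1 was up and 4 were down in FruArg+LPS, with a median log2 fold change of −0.27 beside −0.47 under LPS. Without Control replicate 2 these were 2 up and 1 down with a median of −0.09, and without FruArg+LPS replicate 2 the median was 0.03, and under library size scaling −0.64. The gene that rose was Adgre1, a macrophage surface receptor and the most abundant of them in FruArg+LPS, at 626 and 672 CPM in control and 2182 and 2293 in FruArg+LPS. Those that fell were the lysozyme gene Lyz2, the most abundant in control, and Trem2, Cx3cr1 and P2ry12. Tmem119, which marks microglia in the brain, did not pass the filter. None of the markers of neurons, astrocytes, oligodendrocytes, T cells, B cells, fibroblasts, endothelial or epithelial cells passed, and each of these lists summed to 3.03 CPM or less in every library. Rbfox3, Snap25, Aqp4, Mog, Olig2, Cd3e, Col3a1, Cldn5 and Krt8 had no count in any library. In bulk RNA, fewer cells expressing a gene and less of its RNA per cell cannot be told apart.

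Most of the genes that LPS changed were also changed, in the same direction, with FruArg present. A gene is called differentially expressed here when it changed at least 2-fold with an edgeR adjusted p below 0.05, in a fit with the lane as block. Of 12873 genes tested, 1369 (10.6%) were higher and 1398 (10.9%) lower in FruArg+LPS than in control. This balance rests on the normalisation, since with scaling to library size alone 856 were up and 2533 down. LPS alone raised 1468 (11.4%) and lowered 1582 (12.3%) against the same 2 control libraries. Because both comparisons share those libraries, part of their overlap may come from the shared controls, and a gene's values are given side by side. The class of kept genes as a whole has no guard against this, nor have the classes below in which no difference from LPS is shown. Classes defined by a difference from LPS rest on a further contrast, FruArg+LPS against LPS. It shares the LPS libraries with LPS against control. In that contrast 407 genes (3.16%) were higher, 446 (3.46%) lower, and 2478 (19.2%) had an adjusted p below 0.05 at any fold. Of these 2478, 1194 were higher and 1284 lower. Counts in the gene lists below are to be set against these shares of all genes.

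Of the 3050 genes changed by LPS, 1948 (63.9%) were kept, meaning called in the same direction with FruArg present. They made up 70.4% of the 2767 genes called in FruArg+LPS. The kept genes were 988 up and 960 down, but 641 and 1723 under library size scaling. For 1528 of the kept genes the difference from LPS did not pass the test, which does not show that they were equal. The change from control was smaller than under LPS alone in 252 kept genes (187 up, 65 down) and larger in 168 (117 up, 51 down). Another 502 (16.5%) were lost, no longer called against control and different from LPS, while for 599 the call was missed but the difference from LPS was not shown. Lost does not mean equal to control, since 194 of the 502 had an adjusted p below 0.05 against control at less than 2-fold, in either direction. Among all 12873 genes, 5055 had one at any fold. Of the 502, 401 had the same sign as under LPS. A further 332 genes (186 up, 146 down) were called only with FruArg present and differed from LPS, which is 12% of the FruArg+LPS calls. Their balance turned to 116 up and 257 down under library size scaling and to 338 up and 500 down without FruArg+LPS replicate 2. For 486 more, called only with FruArg present, the difference from LPS was not shown, and 1 gene, Gm18867, was up under LPS and down under FruArg+LPS.

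**Figure D1:**
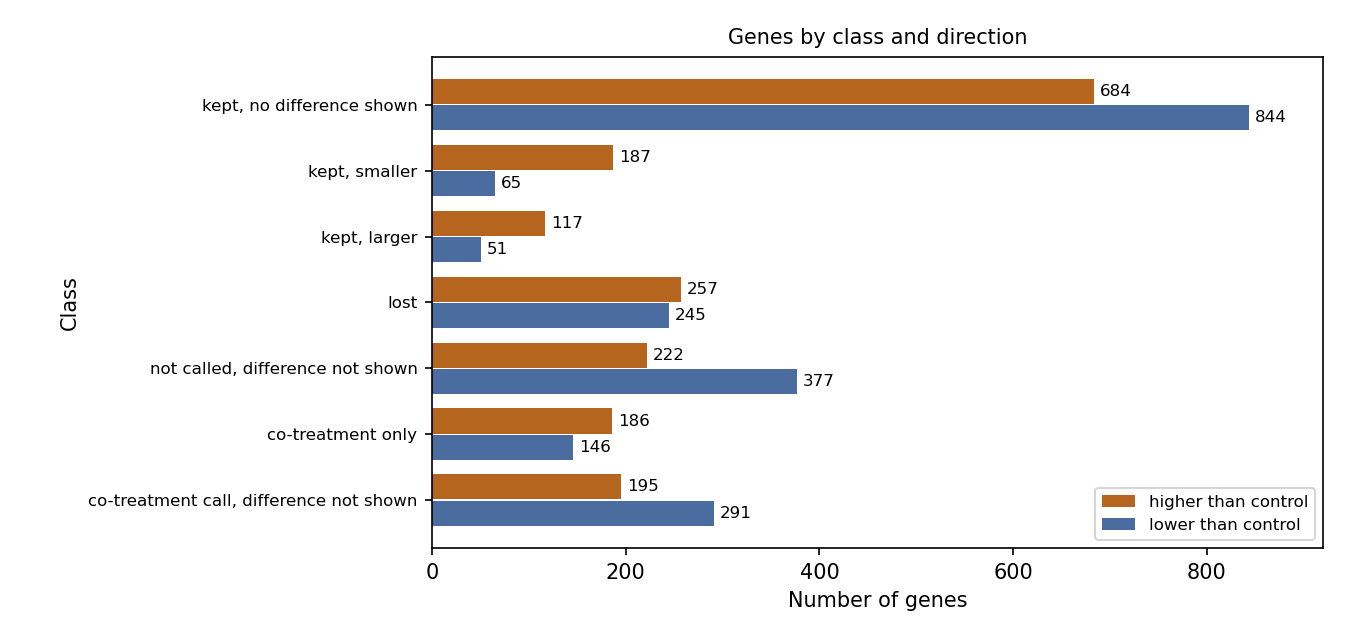
Number of genes (horizontal axis) in each class (vertical axis) by direction, orange for higher and blue for lower than control. The longest bars are the kept genes with no difference shown from LPS, 684 up and 844 down.

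The classes that need the contrast with LPS rest on the pairing of libraries by lane. Without the lane in the model, 2210 genes were called in FruArg+LPS against control and 1640 were kept, but only 5 genes differed from LPS at an adjusted p below 0.05, against 2478 with it, and 1 gene was lost and 1 called only with FruArg present. At an unadjusted p below 0.05 the numbers were 2249 without the lane and 4338 with it. Without FruArg+LPS replicate 1, 2902 genes were called, 2078 kept, 335 lost and 292 called only with FruArg present, and 203 of these 292 were among the 332. Leaving out LPS replicate 1 gave 219 lost and 151 co-treatment-only genes, leaving out LPS replicate 2 gave 255 and 158, and leaving out FruArg+LPS replicate 2 gave 838 co-treatment-only genes, so these counts depend on single libraries. Without the lane in the model, the only members of the gene lists described here that differed from LPS were Cxcl2 and Cd81.

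Cytokine genes were kept almost as a set, and several went higher than under LPS alone. Of 29 cytokine and chemokine genes tested, 26 were up in FruArg+LPS and 27 under LPS, with none down in either. Their median log2 fold change against control was 4.94 in FruArg+LPS and 4.07 under LPS (4.01 and 3.27 with the 6 genes that had no counts in control set to their bounds), against −0.03 and −0.02 over all genes tested. The order of these medians turned in a fit of only the 4 libraries of each contrast (4.76 in FruArg+LPS and 4.82 under LPS). It also turned among the 15 genes with at least 10 counts in every library (2.49 and 3.25). The kept genes split into 11 with a larger change, 5 with a smaller one and 9 with no difference shown. In the list, 12 were above LPS and 6 below, but 7 and 3 without LPS replicate 2. Il6, the fever and acute-phase cytokine, is one of the last kind (ENSMUSG00000025746, chromosome 5, 30013114 to 30019981, GRCm38). It stood at 1.87 and 0.562 CPM in control, 690.0 and 1244 in LPS, and 543 and 1058 in FruArg+LPS. Both FruArg+LPS libraries lay far above control. They overlapped LPS across lanes but were lower within each lane. In edgeR the change from control was 9.90 on the log2 scale (SE 0.37, n = 2 per group, adjusted p = 6.6e-11), and that from LPS −0.28 (adjusted p = 0.35).

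Cxcl2, a chemokine that draws neutrophils, was one of those that went further (ENSMUSG00000058427, chromosome 5, 90903871 to 90905938). Control libraries gave 1.87 and 1.68 CPM, LPS 359 and 494, and FruArg+LPS 1447 and 1604. No value of one group overlapped another, and the log2 fold change was 9.83 (SE 0.24, edgeR adjusted p = 2.1e-12) against control, beside 7.98 for LPS. The difference of 1.85 from LPS (adjusted p = 5.3e-06) is among the few that passed the test without the lane in the model. Csf3, the growth factor of granulocytes, had 0.311 and 0.562 CPM in control, 113 and 61.9 in LPS, and 430.1 and 306 in FruArg+LPS. Again the order was control, LPS, FruArg+LPS in both lanes, with log2 fold changes of 9.31 and 7.20 against control and 2.11 between them (edgeR adjusted p = 1.9e-06). Il1b rose from 1.56 and 2.43 CPM to 1051 and 1804, above the 572 and 576 of LPS, and Il1a and Tnf also ended above LPS, by 1.44 and 0.76 on the log2 scale. The difference in Tnf did not pass without LPS replicate 1 (0.78, adjusted p = 0.06) or LPS replicate 2 (0.72, adjusted p = 0.077). These are pyrogenic cytokines that act early in inflammation.

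Some genes of this group had no counts in control. Cxcl3, a close relative of Cxcl2, was at 0 in both control libraries and at 8.94 and 10.6 CPM in FruArg+LPS, at least 16.1-fold higher with a floor of 3 counts per library, and had reached 1.12 and 2.57 CPM under LPS. Il1f9, a member of the interleukin 1 family, was at least 18.7-fold higher than control. Such floors, and the intervals of ratios, cover counting error only. Csf2, the growth factor of granulocytes and macrophages, was chosen after its values were seen and was the only cytokine gene of the list called with FruArg present but not under LPS. It had 0 in both control libraries, 0.375 and 0 CPM in LPS, and 4.36 and 3.04 CPM in FruArg+LPS, with 4.99 and 4.39 in AGE+LPS, which is a low level in every library.

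Most genes of the NF-kB pathway and its feedback loops were kept. Of 29 tested, 25 were up and 1 down, with a median log2 fold change of 2.57 beside 2.50 under LPS. Of the 29, 22 were kept with no difference shown. Against LPS, 1 was higher and 5 lower at an adjusted p below 0.05 in edgeR, near the 19.2% over all genes tested. Traf1, a signalling adaptor induced by NF-kB, went from 0.311 and 0.281 CPM to 329.9 and 416, next to 395 and 354 in LPS, a log2 fold change of 10.23 in both comparisons. Ptgs2, the inducible enzyme of prostaglandin synthesis, had 9.02 and 12.5 CPM in control, 1244 and 1592 in LPS, and 936 and 1633 in FruArg+LPS. The range in FruArg+LPS spans that in LPS for both genes. Lcn2, a protein that binds bacterial iron carriers, had 0.622 and 0.0936 CPM in control and 207 and 220 in FruArg+LPS, a ratio of 990.2 (95% exact Clopper-Pearson interval 338 to 4806). The member that fell, Cd83, a surface protein of activated antigen-presenting cells, did so in both comparisons (−1.27 and −1.01), but by less than 2-fold in FruArg+LPS without Control replicate 2 (−0.62), and it was not called without the lane in the model (−1.13, adjusted p = 0.17).

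Enzymes that define the activated macrophage divided. Acod1, which makes itaconate, had 28.0 and 32.2 CPM in control, 6256 and 8412 in LPS and 6059 and 8996 in FruArg+LPS, with a log2 difference from LPS of 0.03. Nos2, the inducible nitric oxide synthase, which uses arginine (ENSMUSG00000020826, chromosome 11, 78920787 to 78960254), had 2.18 and 0.655 CPM in control, 758 and 808 in LPS, and 146 and 324 in FruArg+LPS. Every FruArg+LPS value for Nos2 lay below both LPS values and far above control. Its log2 fold change was 7.84 (SE 0.43, edgeR adjusted p = 2.6e-09) against control, 9.62 for LPS, and −1.79 (adjusted p = 2.9e-04) between them. That difference fell just short of the test in DESeq2 (−1.76, adjusted p = 0.053). Across the list of 14 arginine, polyamine and itaconate genes tested, 5 were up and 1 down (3 down without Control replicate 1 and 3 without FruArg+LPS replicate 1). The median was 0.10, and its sign turned under library size scaling (−0.28) and without Control replicate 2 (−0.01). Ass1, which remakes arginine from citrulline, was chosen after its values were seen and was called only with FruArg present, at 0.688 and 3.23 CPM against 0 in control, with 1.14 and 2.12 in AGE+LPS.

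Receptors of microbial products were mixed. The shares over all genes tested were 10.6% up and 10.9% down in FruArg+LPS. Of 30 tested, 13 were up and 4 down in FruArg+LPS, with a median of 0.60 beside 1.31 under LPS (0.60 and 0.87 with genes at 0 counts in a group set to their bounds). Under library size scaling the median in FruArg+LPS was 0.22. Cd14, the coreceptor of LPS, rose from 117 and 121 CPM to 1264 and 1209, above the 925 and 764 of LPS, a difference of 0.56 that did not pass without LPS replicate 1 (0.62, adjusted p = 0.083) or LPS replicate 2 (0.47, adjusted p = 0.19). Tlr4 itself was not called, at a log2 fold change of 0.22. Tlr2 was kept, at 2.27 beside 2.52. Tlr8, a sensor of single-stranded RNA, had 6.84 and 8.89 CPM in control and no counts in FruArg+LPS, at least 12.5-fold lower, with 0.5 and 0.735 CPM left under LPS. Tlr3, which senses double-stranded RNA (ENSMUSG00000031639, chromosome 8, 45395665 to 45411080), was lost. It had 9.02 and 20.9 CPM in control, 34.4 and 84.3 in LPS, and 8.94 and 28.5 in FruArg+LPS. FruArg+LPS overlapped control and lay below both LPS values. The log2 fold change was 0.29 (edgeR adjusted p = 0.33) against control, 1.98 for LPS, and −1.70 (adjusted p = 9.6e-05) between them.

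The interferon program was still on with FruArg present, but smaller. Among 41 antiviral interferon-stimulated genes tested, 37 were up in FruArg+LPS and 40 under LPS, with none down. Their median was 1.69 beside 2.61 under LPS, and 32 of the 41 were lower than under LPS at an adjusted p below 0.05 while none was higher, against 19.2% of all genes in either direction. Of these, 31 were kept with a smaller change and 1, Eif2ak2, a kinase that halts translation, was lost. The median difference from LPS was −1.07 in lane 3 and −0.66 in lane 6. Without FruArg+LPS replicate 1 the list had 39 up and 25 below LPS, and without the lane in the model 31 up and 0 below LPS.

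Mx1, a GTPase that blocks viral replication (ENSMUSG00000000386, chromosome 16, 97447035 to 97462907), showed this in every library. It had 4.04 and 4.96 CPM in control, 137 and 276 in LPS, and 16.3 and 42.2 in FruArg+LPS. The FruArg+LPS values lay above control and below LPS with no overlap, at a log2 change of 2.75 (SE 0.27, edgeR adjusted p = 1.3e-06) against control, 5.59 for LPS and −2.84 (adjusted p = 1.9e-06) between them. Cmpk2, a mitochondrial nucleotide kinase encoded beside Rsad2, had 59.1 and 71.1 CPM in control, 2409 and 2957 in LPS, and 791 and 1738 in FruArg+LPS. Irf7, the factor that amplifies interferon production, had 83.4 and 128 CPM in control, 882 and 989 in LPS, and 429 and 681 in FruArg+LPS. For both genes the FruArg+LPS libraries sat between the other groups, with differences from LPS of −1.15 and −0.79, that of Irf7 short of the test without LPS replicate 1 (−0.66, adjusted p = 0.066). The effectors Ifit1, Ifit2, Rsad2 and Isg15 were also kept with a smaller change, at 3.66, 2.48, 4.12 and 4.13 beside 5.23, 4.63, 5.77 and 4.74 under LPS. Ifit1bl1, whose reads may be shared with other Ifit copies, had 6.53 and 17.0 CPM in control, 206 and 649.9 in LPS, and 24.5 and 102 in FruArg+LPS, and was not called without the lane in the model (2.33, adjusted p = 0.055).

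Interferon-inducible GTPases, which attack the vacuoles of intracellular microbes, followed the same course. Of 15 tested, 14 were up, with a median of 2.00 beside 3.50 under LPS, and 11 were below LPS and none above. Gbp5 had 0.622 and 0.749 CPM in control, 174 and 269 in LPS, and 43.3 and 127 in FruArg+LPS. Its values did not overlap between groups, with log2 fold changes of 6.92 and 8.35 against control. The difference of −1.43 did not pass in DESeq2 (−1.47, adjusted p = 0.11) or without LPS replicate 2 (−1.33, adjusted p = 0.054). Without FruArg+LPS replicate 1, 12 of the list were up and 10 below LPS. Iigp1 (0.311 and 1.59 CPM in control, 0.229 and 7.22 in FruArg+LPS) was called at 1.85, but its direction rests on FruArg+LPS replicate 2, without which its log2 fold change was −0.86. It was not called without Control replicate 2 (2.1, adjusted p = 0.32), without LPS replicate 2 (1.8, adjusted p = 0.058), in DESeq2 (1.74, adjusted p = 0.054) or under library size scaling (1.46, adjusted p = 0.054). The direction of Ms4a4c, a membrane protein with close relatives (1.87 and 4.49 CPM in control, 42.6 and 101 in LPS, 1.83 and 11.4 in FruArg+LPS), rests on the same library, at 1.02 with it and −0.08 without. Its call was also missed without Control replicate 1 (1.05, adjusted p = 0.077), Control replicate 2 (0.89) or LPS replicate 2 (1.01, adjusted p = 0.076), in DESeq2 (0.97, adjusted p = 0.081), under library size scaling (0.64, adjusted p = 0.17) and in a fit of the 4 libraries alone (0.95, adjusted p = 0.25). Without the lane in the model neither Iigp1 (1.68, adjusted p = 0.34) nor Ms4a4c (0.93, adjusted p = 0.41) was called. Outside this list, Slfn1, a regulator of T cell quiescence whose reads may be shared with its relatives, had 0 and 0.562 CPM in control, 25.7 and 43.4 in LPS, and 3.21 and 7.03 in FruArg+LPS. Of 18 antigen presentation genes, 14 were up, with a median of 1.58 beside 1.96, and H2-K1, the heavy chain of a class I molecule, was kept at 2.16 beside 2.28. Among chemokines, Cxcl10 and Ccl12, which interferon induces, were kept with a smaller change, at 4.94 and 1.63 beside 6.53 and 3.77.

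The sequence before the start of these genes was searched for short motifs. RefSeq promoters (GRCm38.p6, 250 bases before the start, either strand) were found for 151 of the 187 genes raised by LPS and kept with a smaller change. The letters AAANNGAAA, part of the interferon-stimulated response element, occurred before 53 of the 151 (35.1%), against 8.89% of 8880 genes tested and 10.8% of all 27025 genes with a promoter (9.37% of 32851 promoters). They occurred before 8 of 91 genes raised by LPS and kept with a larger change (8.79%), 25 of 185 lost after a rise (13.5%) and 8 of 111 called up only with FruArg present (7.21%). GGGANTTTC, one form of the NF-kB site, was before 5 of the 91 with a larger change (5.49%), 5 of the 185 lost after a rise (2.7%), 3 of the 111 called up only with FruArg present (2.7%) and 1 of the 151 with a smaller change (0.662%), against 1.02% of genes tested and 1.11% of all genes (0.941% of promoters). TGACNNNGC, the core to which Nrf2 and related factors bind, was before 15 of the 111 called up only with FruArg present (13.5%), much as in the genes tested (14.1%, with 11.5% of all genes and 10.2% of promoters). It was before 17 of the 91 with a larger change (18.7%), 23 of the 151 with a smaller one (15.2%) and 28 of the 185 lost (15.1%). A match describes letters only and is not a bound site. The promoters of 4 genes named here are printed to show what was counted, with the matched letters in capitals: Slfn1 (chr11:83116570-83116819, plus strand) and Ifit1bl1 (chr19:34601969-34602218, minus strand) for the first motif on either strand, Cxcl2 (chr5:90903649-90903898, plus strand) for the NF-kB form, and Gsta3 (chr1:21240335-21240584, plus strand) for the Nrf2 core.
Slfn1: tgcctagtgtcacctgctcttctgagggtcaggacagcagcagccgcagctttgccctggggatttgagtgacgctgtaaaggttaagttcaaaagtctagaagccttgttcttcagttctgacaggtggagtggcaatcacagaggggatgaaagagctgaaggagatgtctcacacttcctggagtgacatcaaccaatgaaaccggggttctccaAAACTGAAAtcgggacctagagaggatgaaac
Ifit1bl1: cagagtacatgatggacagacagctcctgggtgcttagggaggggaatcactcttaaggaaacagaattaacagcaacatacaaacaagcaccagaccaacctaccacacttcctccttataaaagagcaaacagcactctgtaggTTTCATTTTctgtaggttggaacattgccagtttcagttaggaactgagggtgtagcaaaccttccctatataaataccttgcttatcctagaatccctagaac
Cxcl2: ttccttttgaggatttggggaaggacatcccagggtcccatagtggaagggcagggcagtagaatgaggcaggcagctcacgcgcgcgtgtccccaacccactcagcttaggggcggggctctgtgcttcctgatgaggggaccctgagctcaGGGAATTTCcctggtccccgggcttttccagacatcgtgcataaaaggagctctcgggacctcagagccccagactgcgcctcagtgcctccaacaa
Gsta3: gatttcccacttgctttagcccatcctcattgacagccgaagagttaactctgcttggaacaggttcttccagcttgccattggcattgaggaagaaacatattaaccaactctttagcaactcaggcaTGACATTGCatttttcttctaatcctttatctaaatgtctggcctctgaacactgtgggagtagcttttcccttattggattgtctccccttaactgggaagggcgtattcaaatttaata

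Genes lost with FruArg present went in both directions. The 257 that LPS had raised had a median of 1.35 under LPS and 0.50 in FruArg+LPS, and the 245 that LPS had lowered −1.42 and −0.42. Under library size scaling the lost genes were 170 raised and 373 lowered. Mndal, an interferon-induced DNA-binding protein of the nucleus, had 15.9 and 44.4 CPM in control, 93.7 and 281 in LPS, and 11.9 and 61.0 in FruArg+LPS. Within each lane its level was near control, with log2 fold changes of 0.18 and 2.65 against control, though its model overlaps those of Ifi203 and Ifi211 and its reads may be shared. Cep57l1, a relative of a centrosome protein, had 9.64 and 11.1 CPM in control, 28.2 and 47.5 in LPS, and 4.36 and 6.08 in FruArg+LPS, below control in both lanes. Its difference from LPS, −2.84, is another that passed without the lane in the model. Akap12, a scaffold for protein kinase A, and Slfn9 were also lost, and Irf5, a factor that drives inflammatory genes in macrophages, was lost at 0.92 beside 1.47, just short of the 2-fold limit. Its difference of −0.56 from LPS did not pass without LPS replicate 1 (−0.53, adjusted p = 0.1) or LPS replicate 2 (−0.61, adjusted p = 0.059).

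Among genes that LPS had lowered, Mgst2, a glutathione transferase that also makes leukotriene C4, was no longer called lower than control (ENSMUSG00000074604, chromosome 3, 51660360 to 51682677). It had 7.15 and 9.92 CPM in control, 1.37 and 2.11 in LPS, and 12.6 and 9.51 in FruArg+LPS. The FruArg+LPS libraries overlapped control and lay above LPS, with a log2 difference from LPS of 2.64 (SE 0.36, edgeR adjusted p = 2.5e-04). Cdk5, a kinase best known in neurons, and Map2k3, a kinase upstream of p38, were also lost, at 0.17 and −0.08 beside −1.16 for both under LPS. The Map2k3 difference of 1.08 did not pass without FruArg+LPS replicate 1 (0.77, adjusted p = 0.058), LPS replicate 1 (1.04, adjusted p = 0.065) or LPS replicate 2 (1.1, adjusted p = 0.052). Fasn, the fatty acid synthase, was at −0.87 beside −2.02. Kept but less lowered were the surface receptor Cd33 (19.9 and 23.7 CPM in control, 3.25 and 0.919 in LPS, 7.79 and 6.65 in FruArg+LPS) and Lyl1, a transcription factor of blood cells (66.3 and 57.2, 4.87 and 2.57, 16.0 and 10.8). Both lay below control and above LPS in every library, though Cd33 was not called against control without Control replicate 2 (−1.22, adjusted p = 0.081) and its difference from LPS did not pass without LPS replicate 2 (1.14, adjusted p = 0.13). Cd81, a membrane organiser, had 97.7 and 96.5 CPM in control, 57.5 and 46.0 in LPS and 182 and 153 in FruArg+LPS, at 0.77 and −0.93 against control, each short of 2-fold but 1.70 apart.

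**Figure D2:**
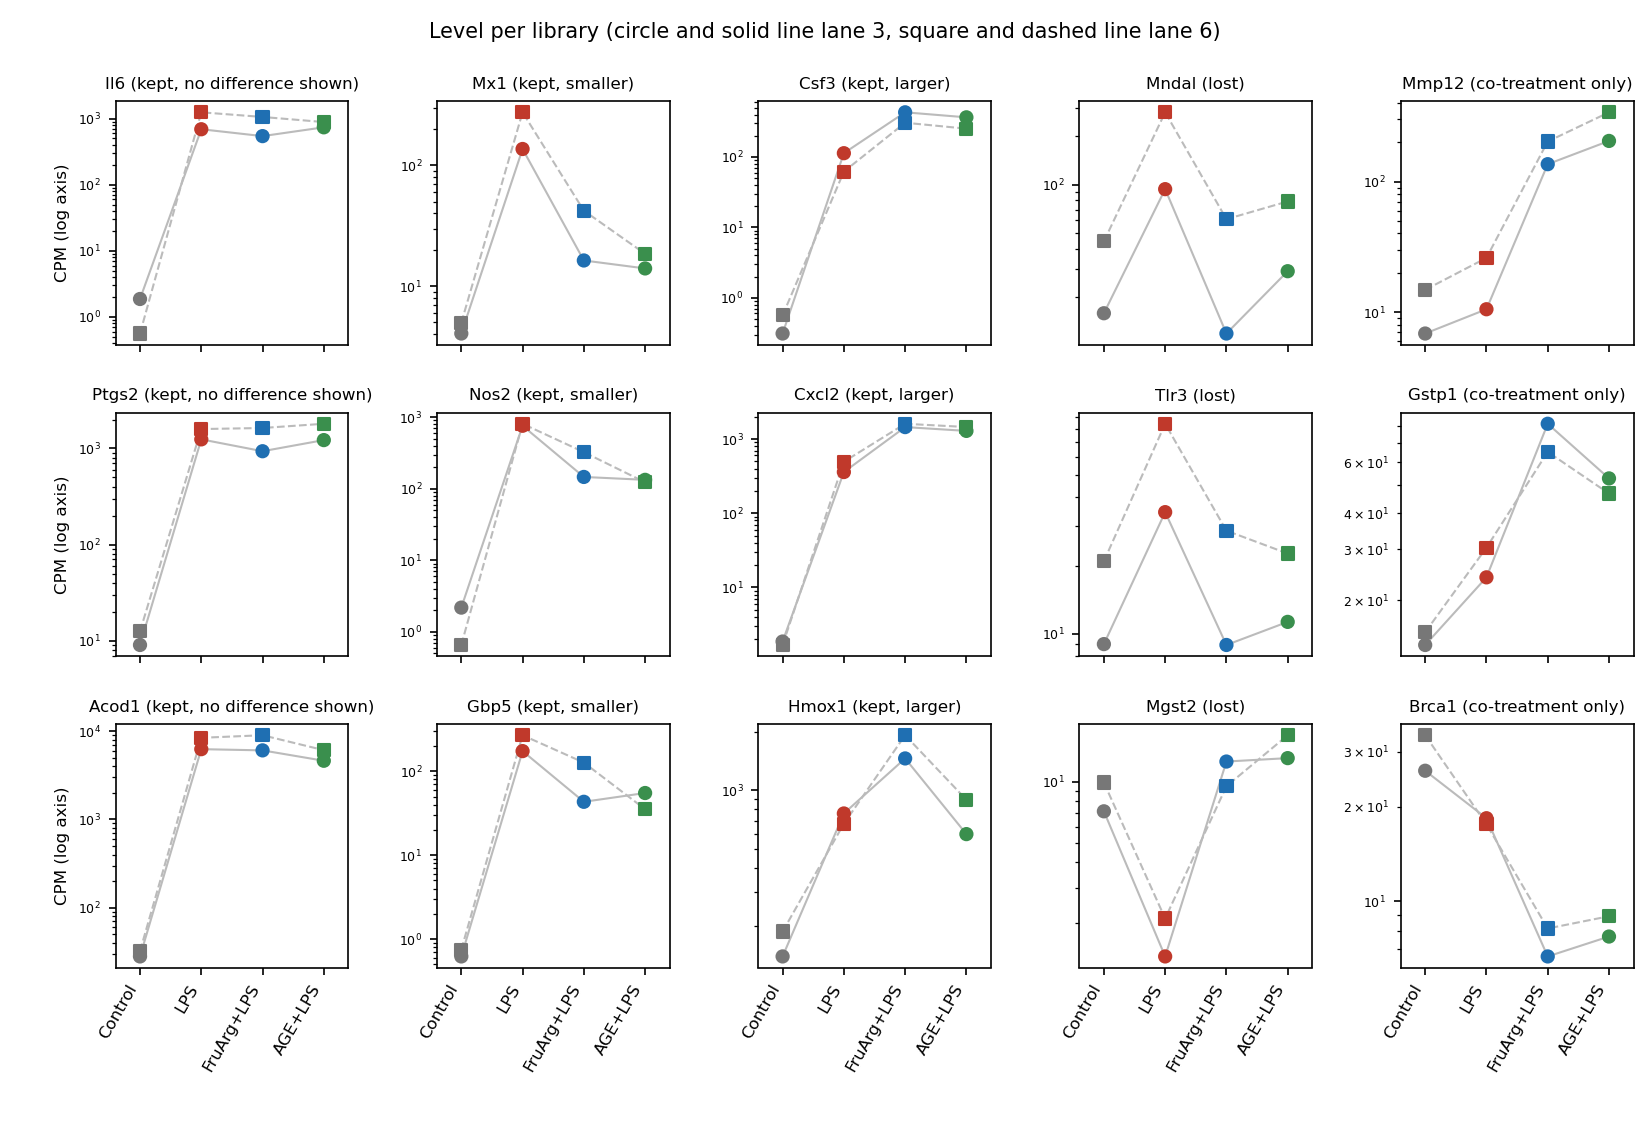
Level of 15 genes in CPM on a log axis (vertical) in the 4 groups (horizontal), 1 point per library, with circles and solid lines for lane 3 and squares and dashed lines for lane 6. Mx1 in FruArg+LPS (16.3 and 42.2 CPM) lies between control and LPS, and Mmp12 (136 and 203 CPM) lies above both.

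Many Nrf2 targets were higher than under LPS alone. Of 31 Nrf2 targets tested, 20 were up and 2 down in FruArg+LPS, against 15 up and 3 down under LPS, with medians of 1.55 and 0.95. The shares over all genes tested were 10.6% up and 10.9% down in FruArg+LPS. Against LPS, 18 were higher and none lower at an adjusted p below 0.05, with a median difference of 0.49 in lane 3 and 0.56 in lane 6. Among all 12873 genes, 1194 were higher and 1284 lower than LPS by the same test. Without FruArg+LPS replicate 1, 20 were still up and 12 above LPS, and without the lane in the model 20 were up and 0 above LPS. Without LPS replicate 1, 10 were above LPS, and without LPS replicate 2, 9. Hmox1, which opens the haem ring (ENSMUSG00000005413, chromosome 8, 75093621 to 75100589), had 140 and 188 CPM in control, 761 and 674 in LPS, and 1460.2 and 1922 in FruArg+LPS. The groups did not overlap, and the log2 fold change was 3.36 (SE 0.19, edgeR adjusted p = 3.5e-09) against control, 2.16 for LPS, and 1.21 (adjusted p = 3.8e-04) between them. Slc7a11, which imports cystine, went from 124 and 153 CPM to 2388 and 2880, beside 1430.3 and 1937 in LPS, and Srxn1, which repairs peroxiredoxins, from 214 and 317 to 3527 and 3940.5, beside 2517 and 2224. The difference from LPS did not pass for Slc7a11 without LPS replicate 1 (0.62, adjusted p = 0.11) or LPS replicate 2 (0.67, adjusted p = 0.074), nor for Srxn1 without LPS replicate 2 (0.37, adjusted p = 0.35) or FruArg+LPS replicate 1 (0.56, adjusted p = 0.072). Nqo1, a quinone reductase, and Gclm, the regulatory subunit for glutathione synthesis, were at 3.36 and 3.03 beside 2.35 and 1.89. The 2 members that fell were Blvra, a biliverdin reductase (−1.36 beside −1.16), and Mgst3, a relative of Mgst2 (−1.38 beside −2.37). The genes for Nrf2 itself (Nfe2l2) and its inhibitor Keap1 were not called, at 0.36 and 0.64.

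The genes called only with FruArg present include 4 of these targets, Gstp1, Gsta3, Ftl1 and Pgd. As a class, all 332 genes had a median log2 fold change of 1.34 in FruArg+LPS and 0.41 under LPS when up, and −1.42 and −0.26 when down. Of the 332, 262 had the same sign under LPS, a share near that over all genes tested (9923 of 12873). An adjusted p below 0.05 under LPS at less than 2-fold was found for 120. Among all 12873 genes, 5586 had one at any fold. Both comparisons share the control libraries. In both lanes 125 of the 186 up genes were at least 2-fold above control, and 93 of the 146 down genes at least 2-fold below. Gstp1, a major cytosolic glutathione transferase (ENSMUSG00000060803, chromosome 19, 4035407 to 4037985), had 14.0 and 15.5 CPM in control, 24.0 and 30.4 in LPS, and 81.6 and 65.2 in FruArg+LPS. LPS libraries were already above control and FruArg+LPS libraries were well above both, at 2.29 (SE 0.20, edgeR adjusted p = 4.6e-07) beside 0.86. Gsta3, a transferase of the alpha class, went from 5.29 and 6.08 CPM to 27.7 and 33.7, with 6.5 and 12.8 in LPS. Ftl1, the ferritin light chain that stores iron, had 291 and 326 CPM in control, 379 and 288 in LPS, and 1228 and 687 in FruArg+LPS. Its reads may be shared with copies, and the replicates differ, but both lie above every control and LPS value. Slc48a1, which carries haem out of the phagolysosome, had 72.2 and 87.1 CPM in control, 109.9 and 108 in LPS, and 522 and 322 in FruArg+LPS, a log2 fold change of 2.38 beside 0.43, and is not on the Nrf2 list. These 4 genes were also above every control value in AGE+LPS, at 52.8 and 46.8 CPM of Gstp1, 18.8 and 30.9 of Gsta3, 548 and 342 of Ftl1 and 230.2 and 262 of Slc48a1.

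Mmp12, the macrophage elastase, was also called only with FruArg present (ENSMUSG00000049723, chromosome 9, 7344381 to 7369499). Control gave 6.84 and 14.8 CPM, LPS 10.5 and 26.0, and FruArg+LPS 136 and 203. Control and LPS overlapped across lanes, but LPS was higher within each lane (0.70, edgeR adjusted p = 0.013). Both FruArg+LPS libraries lay far above them, at a log2 change of 3.98 (SE 0.20, edgeR adjusted p = 1.2e-09) from control and 3.27 (adjusted p = 2.1e-07) from LPS. AGE+LPS libraries were at 205 and 339.8 CPM. Plaur, the receptor of urokinase, went from 34.8 and 25.8 CPM to 190.5 and 124, with 61.7 and 34.5 in LPS and 135 and 103 in AGE+LPS, while Plau, urokinase itself, fell from 549 and 542 CPM to 128 and 89.4, and to 98.7 and 97.3 under LPS. Among all 12873 genes tested, 10.6% were up and 10.9% down against control, and 1194 were above LPS at an adjusted p below 0.05 in edgeR. Of 13 genes of matrix proteolysis and plasminogen activation tested, 6 were up and 3 down, with a median of 2.08 beside 0.08, and 4 were above LPS (2 without LPS replicate 1). Without FruArg+LPS replicate 1 the median was 1.23 with 5 up, and with at least 10 counts required in every library the 6 genes left had a median of −0.43.

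More genes of glycolysis and the hypoxia response were called with FruArg present than under LPS alone. The shares of all genes tested that were up were 10.6% in FruArg+LPS and 11.4% under LPS. Of 28 tested, 23 were up in FruArg+LPS and 15 under LPS, none down, with medians of 1.64 and 1.25, and 9 were above LPS and 1 below, so that for 18 no difference was shown. Without LPS replicate 2 only 3 were above LPS, and the number below was 0 without LPS replicate 1 or FruArg+LPS replicate 1 and 5 without FruArg+LPS replicate 2. With FruArg present the call took in Aldoa, Pgam1, Eno1, Ldha, Mif and Gapdh, which LPS alone did not raise 2-fold. Ldha, a subunit of lactate dehydrogenase, had 475 and 503 CPM in control, 899 and 712 in LPS, and 1286 and 1433 in FruArg+LPS. Eno1, an enzyme of lower glycolysis, had 119 and 112 CPM in control, 199 and 139.8 in LPS, and 421 and 310.1 in FruArg+LPS. In both genes the order control, LPS, FruArg+LPS held without overlap. Genes of this pathway have processed copies in the genome that may share reads, Gapdh (79.0 and 65.8 CPM in control, 342 and 165 in FruArg+LPS) most of all, so these values are uncertain. Pcx, which feeds pyruvate into the citric acid cycle as oxaloacetate, was kept with a larger change, at 3.54 beside 1.77, from 17.4 and 14.9 CPM to 210 and 167. None of the 27 respiratory chain genes tested was called in edgeR (0 in DESeq2, 2 down under library size scaling). At any fold, 1 was up and 5 down at an edgeR adjusted p below 0.05, and 12 had an unadjusted p below 0.05. Their median was −0.11 (−0.49 under library size scaling) beside −0.28.

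Most proliferation genes that fell under LPS were also down with FruArg present. Of 43 DNA replication genes tested, 36 were down and 1 up in FruArg+LPS, with a median of −2.14 beside −1.55 under LPS (33 down). Of 44 mitosis genes, 41 were down and 1 up, with a median of −2.73 beside −2.51. The numbers down changed when a control library was left out. Leaving out 1 control or FruArg+LPS library, the medians ran from −2.25 to −1.95 for DNA replication. Those for mitosis ran from −2.90 to −2.42. Against LPS, 6 DNA replication genes were lower and 3 higher (0 higher without LPS replicate 2), and 6 mitosis genes were lower (3 without LPS replicate 1) and none higher (1 without FruArg+LPS replicate 2). Over all genes tested, 19.2% had an adjusted p below 0.05 against LPS in either direction, and both lists were near or below that share. Ccna2, the cyclin of S phase and mitotic entry, fell from 40.7 and 51.6 CPM to 1.15 and 3.04, and to 4.5 and 3.4 under LPS. Its FruArg+LPS and LPS libraries do not overlap, but the difference of −0.86 did not pass the test (edgeR adjusted p = 0.15). Cenpe, a kinetochore motor, fell further than under LPS, from 25.8 and 33.6 CPM to 0.458 and 2.85, beside 5.5 and 5.42. That difference of −1.68 (edgeR adjusted p = 0.018) did not pass without FruArg+LPS replicate 1 (−1.08, adjusted p = 0.097) or LPS replicate 1 (−1.41, adjusted p = 0.11). The members that rose were Pola2, a subunit of the primase complex (1.82 beside 1.06), and Pttg1, securin (1.02 beside 1.94). Pola2 was not shown to differ from LPS without LPS replicate 2 (0.65, adjusted p = 0.095), and Pttg1 was not called without Control replicate 2 (0.9) or FruArg+LPS replicate 2 (0.54), nor under library size scaling (0.64) or without the lane in the model (1.04, adjusted p = 0.062).

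Brca1, a DNA repair factor (ENSMUSG00000017146, chromosome 11, 101488764 to 101551955), was called only with FruArg present. It had 26.1 and 33.9 CPM in control, 18.4 and 17.6 in LPS, and 6.65 and 8.17 in FruArg+LPS, with 7.7 and 8.94 in AGE+LPS. Control, LPS and FruArg+LPS are stepwise with no overlap, at −2.02 (SE 0.24, edgeR adjusted p = 1.1e-05) against control, −0.74 for LPS, and −1.28 (adjusted p = 0.0027) between them. Ccne2, a cyclin that starts S phase, went from 12.8 and 14.6 CPM to 0.688 and 2.66, with 4.75 and 10.8 in LPS and 1.57 and 4.39 in AGE+LPS. The difference of −2.19 between FruArg+LPS and LPS did not pass without LPS replicate 2 (−2, adjusted p = 0.068). Ncl, nucleolin, fell from 131 and 211 CPM to 42.4 and 96.8 with 139 and 158 in LPS and 75.8 and 125 in AGE+LPS, but its introns hold small nucleolar RNA genes. Of 34 ribosome biogenesis genes tested, 7 were down (12 under library size scaling) and 1 up, with a median of −0.45 (−0.82 under library size scaling) beside −0.62. Among all genes tested, 10.9% were down and 10.6% up.

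Many homeostatic genes of microglia were lower in FruArg+LPS than in control. The shares over all genes tested were 10.6% up and 10.9% down against control. In either direction, 19.2% of all genes differed from LPS at an adjusted p below 0.05 in edgeR. Of 28 tested, 16 were down and 1 up in FruArg+LPS, with a median of −1.17 beside −1.28 under LPS, and the counts without FruArg+LPS replicate 1 were 16 and 1. Without Control replicate 2, 8 were down and 2 up, so the number down depends on that library. Against LPS, 7 were higher and 2 lower, but 4 and 0 without LPS replicate 1, 2 and 2 without LPS replicate 2, and 4 and 2 without FruArg+LPS replicate 1. The purinergic receptors P2ry12 and P2ry13 were at −3.65 and −3.21 beside −2.23 and −3.72. Cx3cr1, the fractalkine receptor, had only 3.42 and 4.02 CPM in control and 0 and 0.38 in FruArg+LPS, 18.7-fold lower with a 95% Clopper-Pearson interval of 4.93 to 158, and was not called without Control replicate 2 (−3.83, adjusted p = 0.09). The gene that rose, Selplg, a ligand for selectins, went from 16.5 and 18.5 CPM to 75.4 and 58.6, beside 42.4 and 40.5 in LPS. Its difference of 0.69 from LPS did not pass without FruArg+LPS replicate 1 (0.43, adjusted p = 0.15), LPS replicate 1 (0.7, adjusted p = 0.11) or LPS replicate 2 (0.66, adjusted p = 0.13).

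**Figure D3:**
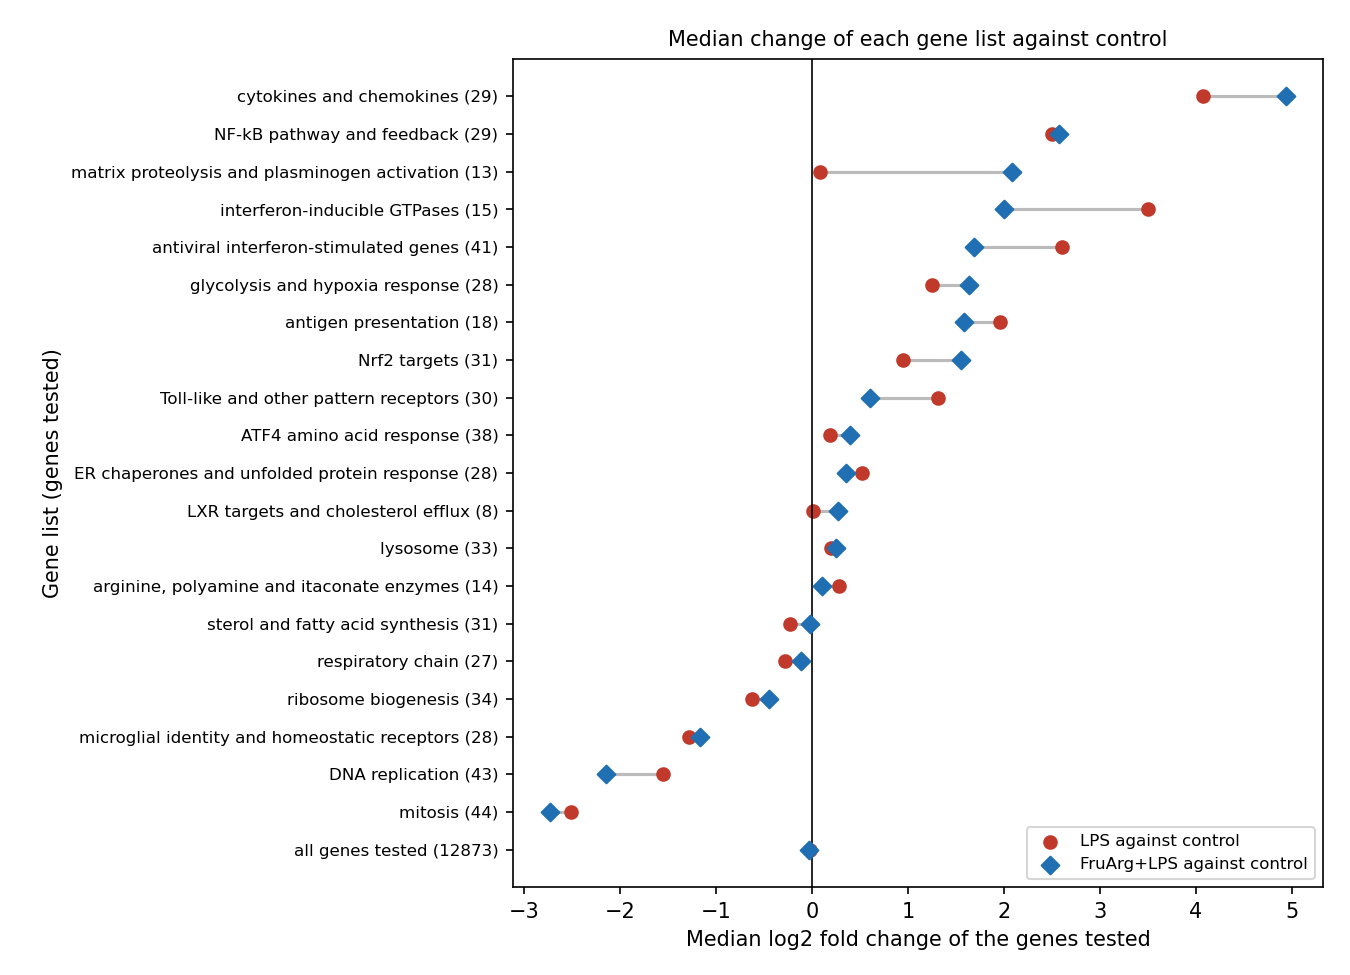
Median log2 fold change of the genes tested in each list (horizontal axis; lists with their number of genes on the vertical axis), red circles for LPS and blue diamonds for FruArg+LPS, both against control. Interferon-inducible GTPases go from 3.50 to 2.00 and Nrf2 targets from 0.95 to 1.55, while NF-kB genes stay at 2.50 and 2.57, and the 4 lists near 0 that change sign under library size scaling are arginine enzymes, ER chaperones, LXR targets and lysosome.

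The study names 37 genes that were tested, and since it chose them on these libraries their count is not independent evidence. Of these, 29 were up and none down in FruArg+LPS, with a median of 2.27 beside 2.16 under LPS. They divided into 12 kept with no difference shown, 7 smaller, 7 larger, 5 lost and 3 called only with FruArg present. In all, 14 were above LPS and 9 below, but 11 and 5 without LPS replicate 1 and also without LPS replicate 2. Saa3, an acute-phase protein, was among the first (11.5 and 11.7 CPM in control, 5281 and 5518 in LPS, 3913 and 6165 in FruArg+LPS), and Nupr1, a stress-induced chromatin protein, among the second (34.5 and 38.4, 300.2 and 289, 57.3 and 122), though short of 2-fold without FruArg+LPS replicate 2 (0.63) and under library size scaling (0.91). Gstm5, at 6.84 and 9.45 CPM in control and 8.48 and 7.98 in FruArg+LPS, was not called and overlaps between groups. Its log2 fold change was 0.0, with no direction, and it was −0.1 without Control replicate 1 and −0.21 without FruArg+LPS replicate 1.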

How the data were processed

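Poly(A) RNA of 8 BV-2 libraries was measured. The authors trimmed reads, mapped them to GRCm38 and counted them per Ensembl gene with featureCounts, and deposited raw counts (strand setting and handling of multiply mapped reads not stated). Of 46078 genes, 45143 matched GENCODE M21. Genes passing filterByExpr (12873) were fitted in edgeR 4.0.16 (R 4.3.3, TMM, quasi-likelihood test, Benjamini-Hochberg adjustment) with group and lane as terms on all 8 libraries. Each SE was back-calculated as the absolute log2 fold change over the square root of the F statistic of that test. It is not an estimate that edgeR reports. The smallest two-sided p of a permutation test of 2 against 2 libraries is 0.333, so none is given.

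Differences between replicates correlated between groups across genes, which are not independent replicates (Pearson r 0.244 for control and FruArg+LPS, 0.628 for LPS and AGE+LPS). Replicates differed by more than counting error (chi-square per degree of freedom 11.9 in control, 24.2 in FruArg+LPS, 41.3 in LPS and 25.6 in AGE+LPS).

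Named genes are those the study names and those with the largest changes and a mean of at least 5 CPM, 8 per direction among called genes whose groups do not overlap, 6 among lost, smaller and larger, 8 among genes called only with FruArg present, and 2 in each of 20 lists. Genes outside this rule were chosen after their values were seen. Members and lists were chosen with earlier results of these data known. Alternatives were no lane term, fewer libraries, DESeq2 1.42.0, RLE or library size scaling, other filters, no fold limit and leaving out each library. Figures used Python 3.11.15 and matplotlib 3.10.9.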

Additional observations from a re-analysis of the deposited data

How the results depend on the processing

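For 125 gene results against control, over all settings, 1642 values kept their direction and side of the adjusted p threshold. Another 44 fell short of it, 1 newly passed and 8 turned, among them those of Gstm5, whose main value was 0.0. Of 88 against LPS, 1032 kept direction and side and 167 fell short, 84 of them without the lane term. These labels leave out the 2-fold limit. Some values against control counted as kept fell below it, among them values of Tank, Nupr1, Cd83 and Dnajb9. Of 20 list medians, 218 values stayed within the spread between replicates, 53 moved further and 9 turned. Without the lane term, 1 gene was lost and 1 was called only with FruArg present. Without the fold limit, 5055 genes were called, 3647 kept, 801 lost and 545 called only with FruArg present, since smaller changes then count. Leaving out 1 library gave 219 to 723 lost genes and 151 to 838 called only with FruArg present.

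Under library size scaling the median of all genes was −0.411, beside −0.034, with 856 genes up and 2533 down. It turned the medians of arginine enzymes (−0.28), ER chaperones (−0.02), LXR targets (−0.11) and lysosome (−0.13). The arginine median also turned without the AGE+LPS libraries (−0.01) and with at least 10 counts in every library (−0.08), and ranged from −0.01 to 0.26 leaving out 1 library. Matrix proteolysis turned with at least 10 counts (−0.43, fewer genes tested), and sterol synthesis ranged from −0.24 to 0.06. Gstm5 gave −0.01 without the lane term, −0.37 under library size scaling, −0.01 with at least 1 count and −0.04 with at least 10. Leaving out 1 library, Gstm5 ranged from −0.21 to 0.27, Ms4a4c from −0.08 to 1.37 and Iigp1 from −0.86 to 2.23. Where not stated, the cause was not tested. Depth limits genes near 3 counts per library (0.276 to 0.933 CPM), for which only bounds or wide intervals are given.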

Other observations

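Over all genes tested, 10.6% were up and 10.9% down in FruArg+LPS against control. The lipid and secretory pathway lists were near or below these shares in that comparison. Against LPS, 1194 of 12873 genes were higher and 1284 lower at an adjusted p below 0.05 in edgeR. Beside those shares, more of the sterol list was above LPS and more of the ER chaperone list below it. Of 31 sterol and fatty acid synthesis genes tested, 2 were up and 2 down against control, with a median of −0.02 beside −0.23 under LPS, and 9 were above LPS and 1 below at an adjusted p below 0.05 in edgeR. The number above LPS was 3 without LPS replicate 1, 2 without LPS replicate 2, 5 without FruArg+LPS replicate 1 and 5 in DESeq2, and the number below was 0 without either LPS library or either control library and 2 without FruArg+LPS replicate 1. Against control, 4 were up without FruArg+LPS replicate 2, and 1 was down without Control replicate 1, Control replicate 2 or FruArg+LPS replicate 1. The median turned without FruArg+LPS replicate 2 (0.06), and under library size scaling it was −0.40 with 2 up and 5 down. Acss2, which makes acetyl-CoA from acetate, had 11.8 and 15.1 CPM in control, 63.6 and 71.0 in LPS and 44.5 and 68.1 in FruArg+LPS, while Elovl6, a fatty acid elongase, had 19.3 and 14.2, 1.62 and 2.67, and 6.42 and 2.85. Both stayed on the same side of control as under LPS. Of 28 genes of ER chaperones and the unfolded protein response, 3 were up, with a median of 0.35 beside 0.52 (−0.02 with 1 up under library size scaling), and 10 were below LPS and none above. Without LPS replicate 1, 4 were below LPS, without LPS replicate 2, 5, without FruArg+LPS replicate 1, 5, and without FruArg+LPS replicate 2, 2 were above. Dnajb9, a cochaperone of the ER, had 13.4 and 20.9 CPM in control, 52.2 and 109 in LPS and 26.1 and 54.6 in FruArg+LPS, short of 2-fold above control without Control replicate 2 (0.97) and under library size scaling (0.86), and not called without the lane in the model (1.2, adjusted p = 0.11). None of 8 LXR targets was called in edgeR and 0 in DESeq2, with 6 at an unadjusted p below 0.05, 3 up and 1 down at an adjusted p below 0.05 at any fold and a median of 0.27 (−0.11, with 2 called down, under library size scaling). Without Control replicate 2 or FruArg+LPS replicate 1, 1 was called up, and without FruArg+LPS replicate 2, 1 was called down.

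Of 38 ATF4 targets tested, 10 were up and 4 down, against 10.6% and 10.9% of all genes (7 down under library size scaling), with a median of 0.40 (0.02 under library size scaling) beside 0.19. Gdf15, a stress-induced hormone, rose to 437 and 246 CPM, above the 154 and 86.9 of LPS, at log2 fold changes of 3.16 and 1.66 against control, while Ddit3, a stress-induced transcription factor, was at 1.58 beside 2.65. Of 33 lysosome genes, 3 were up and 3 down, which is near the 10.6% and 10.9% over all genes tested, with a median of 0.25 beside 0.20 (−0.13 with 0 up under library size scaling). None was up without Control replicate 1. Atp6v0d2, a subunit of the proton pump, fell by 3.37 on the log2 scale beside 3.15 under LPS, and Tfeb, a regulator of lysosomal genes, from 14.9 and 12.6 to 3.21 and 3.42, beside 2.0 and 1.65.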
